A study of Mus musculus with 6 samples.

Results

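The interferon response genes described here are 44 mouse genes known as interferon-stimulated or interferon-signalling genes, listed by name with earlier results of these data known, among them Ifitm1, Ifitm2 and Ifitm3. They were matched by symbol to the Ensembl identifiers of the deposited RNA-seq table, and all 44 were found among the 21959 genes, of 21966 in the table, that were quantified with an OK status in both conditions. The samples, 3 PID+ and 3 PID-, are by the study's description primary epithelial cell cultures established from colon tumors of mice, although the labels call the source of the untreated samples normal. PID+ mice carried CDX2P-NLS-Cre, a floxed APC allele recombined to APC<sup>Δ/+</sup> and the ROSA26-PID transgene, which after Cre excision of a stop cassette expresses a GST-tagged inhibitory fragment of the kinase Pak1 together with eGFP, and PID- mice carried the same Cre and APC alleles without the transgene. The fragment bears a point mutation in Pak1 that removes binding to FMR1, and it blocks the Group I Pak kinases in trans. The Cre driver and APC<sup>loxP/+</sup> parents were on C57BL6/J, whereas the transgene came from G4 embryonic stem cells, so that the chromosome segments around the transgene may differ in origin between the groups. By the study's account, Cre under the CDX2 promoter acts mainly in epithelial cells of the large bowel and the lower small bowel. Each culture is a line grown from tumor tissue. The labels number the untreated mice 1, 2 and 3 and the treated mice 4, 7 and 26, and the table names its conditions treated and untreated. These were taken as PID+ and PID- by the treatment label and the study's description, although the study numbers its PID- lines otherwise. Whether the untreated samples are the PID- tumor cultures therefore rests on that reading, and so does every PID- value.

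Type I interferons bind the Ifnar1 and Ifnar2 receptor chains, and the kinases Jak1 and Tyk2 then phosphorylate Stat2, which acts with Irf9 to drive genes that carry interferon-stimulated response elements. Interferon gamma signals through Ifngr1 and Ifngr2 and the kinases Jak1 and Jak2. The genes switched on in this way sense foreign nucleic acid, degrade RNA, modify proteins with Isg15 or, as with the Ifitm proteins, block the entry of enveloped viruses through membranes, and epithelial cells of the gut hold a low standing level of many of them.

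Each gene had 1 pooled FPKM value in each condition, because 3 sets of reads of a condition were merged before quantification. By the study's methods the sets came from repeated runs of sequencing, whereas 3 mice are named in the labels, so whether a value covers 3 mice is not certain. No spread between mice and no test of a difference can therefore be given, and the interval in brackets after a value is the one that CuffDiff deposited with it, which comes from the model of that program. These intervals were wide, with a median distance from the value to a bound of 75.1% of the FPKM in PID+ and 73.9% in PID- cells where the mean FPKM reached 10. Changes are given as log2((FPKM in PID+ + 1)/(FPKM in PID- + 1)), a scale that understates the change of low genes, and a gene is called higher or lower here when it passes 3-fold on that scale. Low FPKM values of single-transcript genes fell on steps of whole fragments, 89.4% of 818 values in PID+ and 91.2% of 761 in PID- cells lying within 0.1 of a whole number. With these steps the value of 1 fragment was 1.38 times as large in PID+ as in PID- cells. Steps smaller by a factor of 2 gave 90.8% whole numbers in PID+ and 89.2% in PID- cells, and with the smaller step in PID+ cells alone the ratio was 0.689, so which condition had more fragments was not settled. Numbers of fragments given below use the larger steps and could each be larger by a factor of 2.

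Of the 44 genes, 9 were at least 3-fold higher in PID+ cells, or 20.5%, against 1.04% of all genes with OK status, and 0 were at least 3-fold lower, against 1.72%. Among the 11785 genes that reached an FPKM of 1 in PID+ or PID- cells, which include 41 of the 44, the shares were 1.94% higher and 3.2% lower. At 2-fold, 15 of the 44 were higher and 1 was lower, against 3.31% and 3.77% of all genes. The deposited intervals lay apart for Ifitm3 and Usp18, both higher, and for no gene that was lower, where the shares of all genes were 0.187% and 0.542%. In direction alone 32 of the 44 were higher in PID+ cells, or 72.7%, beside 49.4% of those 11785 genes, and with Gapdh set equal 24 of the 44 were higher beside 15.8% of the 11785. Their median log2 change was 0.44, beside 0 over all genes and -0.0012 over the 9341 genes whose mean FPKM reached 5. The rise of Ifitm3 was thus accompanied by 8 other listed genes past 3-fold, and without the 3 Ifitm genes the median of the remaining 41 was 0.44.

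The size of the list's shift depended on how the conditions were scaled. Gapdh itself stood at 2570.3 FPKM in PID+ cells against 1666 in PID- cells, and setting it equal moved the median of the 9341 genes to -0.59 and that of the 44 genes to 0.033. Relative to the 9341 genes the 44 then stood 0.62 higher, compared with 0.44 as deposited. All values given below with Gapdh set equal stand beside that median of -0.59. Ifitm3, Oasl2, Usp18, Oas1a and Isg15 were at least 3-fold higher under that scaling too.

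**Figure D1:**
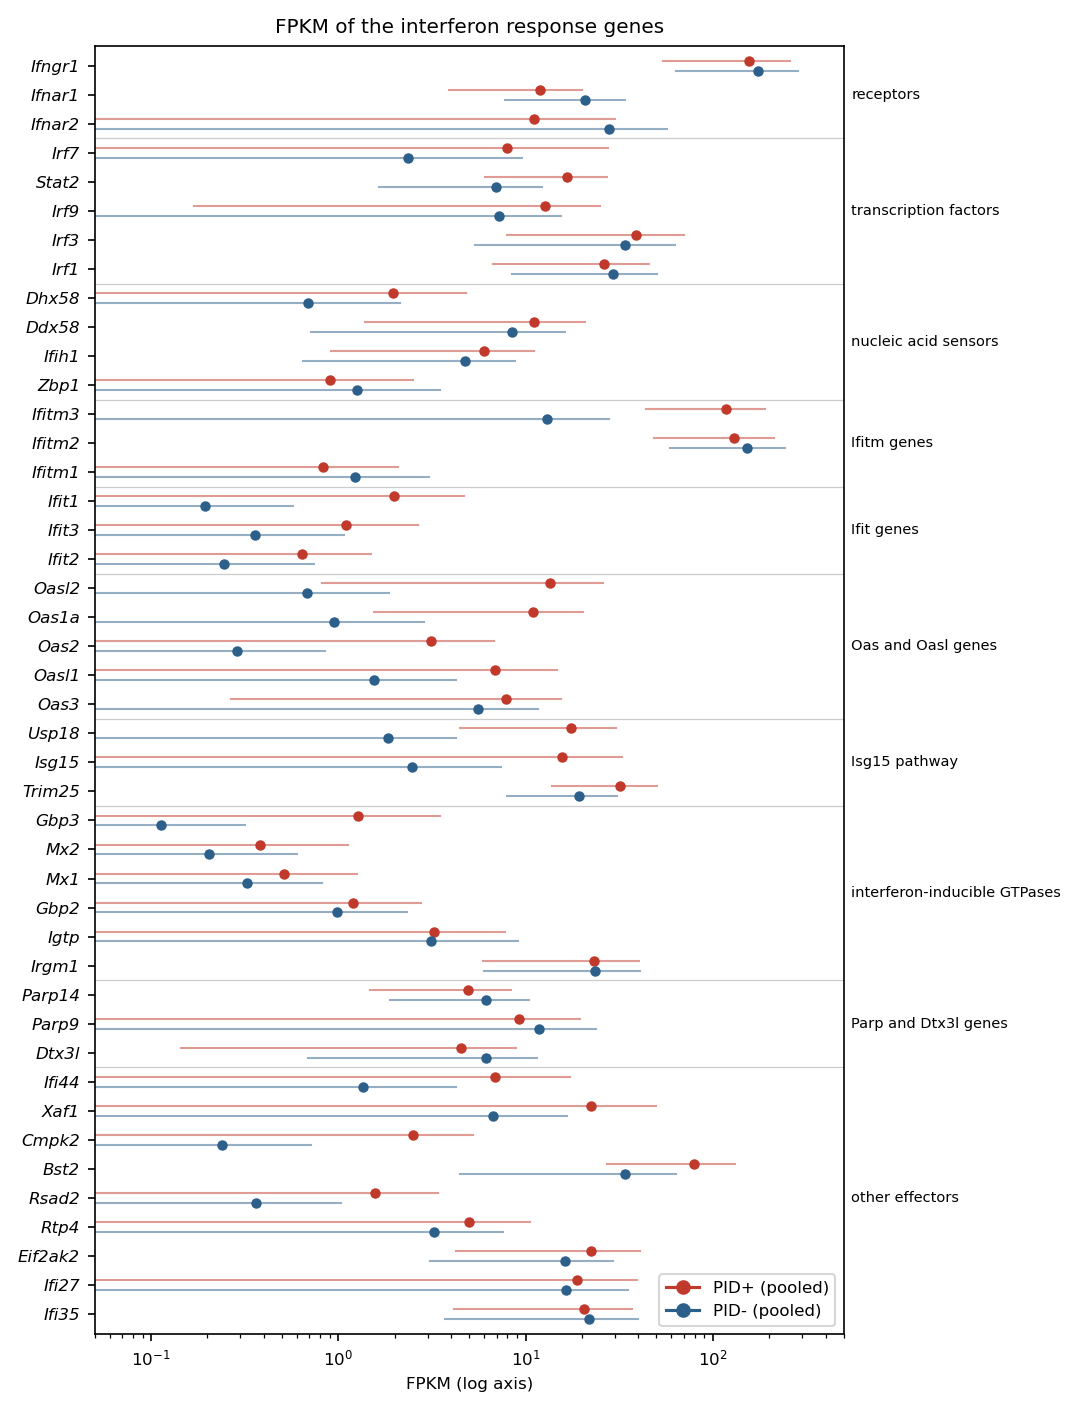
FPKM of the 44 interferon response genes on a log axis, with PID+ cells in red and PID- cells in blue. Points are pooled values and lines the deposited CuffDiff intervals, which run to the left edge where they reach 0. Ifitm3 and Usp18 have intervals that lie apart.

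The ligands of the pathway were at the bottom of the range. Of 21 interferon genes listed, 16 were at 0 in both conditions, among them Ifnb1, the interferon-lambda genes Ifnl2 and Ifnl3, and every Ifna gene listed. The most abundant was Ifne, an interferon of epithelia, with an FPKM of 0.580 (0 to 1.72) in PID+ and 0.444 (0 to 1.35) in PID- cells. Ifnz had 0.0114 (0 to 0.0390) and 0.0582 (0 to 0.177), and Ifng, the type II ligand, was listed at 0 in PID+ and at 0.0312 (0 to 0.103) in PID- cells. At these levels no ligand could reach 3-fold on the FPKM + 1 scale, so that scale cannot say whether a ligand changed. Interferon protein, and interferon from outside the cultures such as that in serum, was not tested.

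All 3 receptor genes on the list had lower values in PID+ cells. Ifnar2, the signalling chain of the type I receptor, had an FPKM of 11.1 (0 to 30.1) in PID+ and 27.9 (0 to 56.6) in PID- cells. At -1.25 its change was the lowest among the 44. Its partner chain Ifnar1 had 12.0 (3.90 to 20.1) and 20.8 (7.72 to 33.8), a change of -0.75. Ifngr1, the ligand-binding chain of the interferon gamma receptor, was the most abundant gene of the list, with 156 (54.5 to 258) and 174 (63.5 to 284), a change of -0.15. Both type I chains are encoded on chromosome 16, where the 277 genes whose mean FPKM reached 5 had a median log2 change of -0.50. With the median of each chromosome subtracted, Ifnar2 was at -0.75, Ifnar1 at -0.24 and Ifngr1 at -0.097, so the direction held for all 3. Ifnar2 was 3-fold lower only when Gapdh was set equal, at -1.84. The part of this chromosome-wide difference in these values was not tested.

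Signalling genes outside the list leaned the same way as deposited, but not with chromosome medians subtracted. Of 10 receptor and proximal signalling genes, 7 were lower in PID+ cells and 3 higher, with a median of -0.32. With chromosome medians subtracted 5 were lower and 5 higher, with a median of -0.028. Jak2, the kinase at the interferon gamma receptor, passed 3-fold, with an FPKM of 23.6 (9.86 to 37.3) in PID+ and 73.7 (33.8 to 114) in PID- cells, a change of -1.60. Jak1, which serves both receptors, had 29.6 (10.7 to 48.6) and 48.8 (17.8 to 79.8). Il10rb, a chain of the interferon-lambda receptor, had 21.4 (3.64 to 39.1) and 28.8 (5.23 to 52.5). Its change of -0.42 became 0.088 with the chromosome median subtracted.

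Of the 5 transcription factors of the list 4 were higher, with a median of 0.73. With Gapdh set equal 3 were higher, with a median of 0.16. With chromosome medians subtracted 3 were higher, with a median of 0.48. Irf3 changed sign in both settings. None passed 3-fold as deposited, and Irf7 did so with a pseudocount of 0.1, at 1.72. Irf7, which amplifies type I interferon responses, had an FPKM of 8.0 (0 to 27.5) in PID+ and 2.36 (0 to 9.61) in PID- cells, a change of 1.42. In the annotation Irf7 overlaps Phrf1, which lies within 250 kb of Ifitm3 on chromosome 7 and was at 0.91. With the median of that chromosome subtracted Irf7 was at 1.17. Stat2 had 16.6 (6.09 to 27.2) and 7.0 (1.65 to 12.3), a change of 1.15. Irf9, the DNA-binding partner of Stat2, had 12.6 (0.17 to 25.1) and 7.23 (0 to 15.5), a change of 0.73. Both Stat2 and Irf9 thus had higher values in PID+ cells, and they did so under every scaling tried. Irf3, which is activated by phosphorylation downstream of nucleic acid sensors, had 39.0 (7.97 to 70.1) and 34.1 (5.39 to 62.8), a change of 0.19 that turned to -0.42 with Gapdh set equal. Irf1, which interferon gamma induces, had 26.3 (6.69 to 45.8) and 29.2 (8.43 to 50.1), a change of -0.15. Intervals overlapped for each of the 5 factors.

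Among sensors of foreign RNA and DNA, 3 of 4 were higher with a median of 0.32. With Gapdh set equal 1 of 4 was higher, when 15.8% of the 11785 genes were. Ddx58, which encodes the RNA sensor RIG-I, had an FPKM of 11.1 (1.38 to 20.8) in PID+ and 8.49 (0.718 to 16.3) in PID- cells. Ifih1, which encodes MDA5, had 6.02 (0.917 to 11.1) and 4.73 (0.651 to 8.80). Their log2 changes of 0.35 and 0.29 were small beside the width of the intervals. Of 18 sensors, adaptors and related genes outside the list, not all of them specific to nucleic acid, 10 were higher and 8 lower. Their median of 0.021 became -0.031 with equal total FPKM and -0.35 with Gapdh set equal, and none passed 3-fold as deposited. By the mean of both conditions the most abundant were Pcbp2, with 107 (40.8 to 172) and 124 (46.4 to 202), Aim2, a sensor of DNA in the cytosol, with 31.5 (0 to 63.5) and 61.6 (0 to 124), and Ikbke, with 25.0 (3.40 to 46.6) and 29.0 (4.60 to 53.3). Tlr3, a sensor of double-stranded RNA named after its value was seen, had 35.1 (14.6 to 55.6) and 14.0 (5.08 to 22.97), and its change of 1.26 was the highest of the 18.

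Of the 3 Ifitm genes Ifitm3 alone passed a threshold. Ifitm3, which encodes an endosomal membrane protein that restricts virus entry, had an FPKM of 117 (43.9 to 191) in PID+ and 13.1 (0 to 27.7) in PID- cells, a ratio of 9.0 and a change of 3.07 in log2. Ifitm2, its close relative, had 130.4 (48.7 to 212) and 151 (58.7 to 244), a change of -0.21. Ifitm1 was low, with 0.823 (0 to 2.08) and 1.22 (0 to 3.04), a change of -0.29. In PID- cells Ifitm2 was therefore by far the most abundant of the 3, and in PID+ cells Ifitm3 stood near it. Under the scalings tried Ifitm3 lay between 2.47 and 3.16, and Ifitm2 and Ifitm1 were below 0 in all of them. Each of Ifitm2 and Ifitm3 has 1 annotated transcript, and the steps of the table put about 3972 fragments behind the PID+ value of Ifitm3 and 608 behind its PID- value. Outside the list, Ifitm10 had 1.16 (0 to 21.01) and 2.70 (0 to 28.7), Ifitm5 0.475 (0 to 1.41) and 0.366 (0 to 1.10), and Ifitm6 0.0821 (0 to 0.277) and 0.210 (0 to 0.637). Ifitm7 was listed at 0 in both conditions, so none of the other family members was at the level of Ifitm2 or Ifitm3.

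Ifitm genes resemble each other in sequence, and reads, which were 50 bases long by the labels, can fit more than 1 of them. The study's methods describe paired-end reads, whereas the shares given here count single stretches of 50 bases and take no account of pairs. Of the 629 stretches of 50 bases in the longest Ifitm3 transcript, 10.02% also occur in a transcript of another annotated gene, among them Ifitm2, Ifitm1 and predicted genes. For Ifitm2 the share was 48.5%, mostly with predicted genes, and for Ifitm1 6.36%. Ifitm2 also overlaps the predicted gene Gm45717 in the annotation. How CuffDiff divided such reads was not tested.

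Ifitm3 lies on chromosome 7 at 141009586 to 141010770 on the minus strand of GRCm38, between Ifitm1, on the plus strand, and Ifitm6. Of the 29 other genes within 250 kb, 19 reached an FPKM of 1 in PID+ or PID- cells, and of these 13 were higher in PID+ cells and 6 lower, with a median log2 change of 0.45, where 49.4% of the 11785 genes at that level were higher. Besides Ifitm3, 3 of the 29 neighbours were at least 3-fold higher and 0 lower as deposited, beside 1.04% and 1.72% of all genes. Gapdh had a ratio of 1.54 in PID+ over PID- cells, and with Gapdh set equal all 3 fall under 3-fold. Ano9, of the anoctamin family, stood at 13.4 FPKM in PID+ cells against 2.61 in PID- cells, a change of 2.0. Urah, an enzyme of urate breakdown, stood at 20.8 against 4.46, a change of 1.99. Pkp3, a plakophilin of desmosomes, stood at 55.8 against 16.3, a change of 1.72 that was 1.47, under 3-fold, with the chromosome median subtracted. None of these 3 belongs to the interferon lists used here. Next came Lmntd2 at 1.27, B4galnt4 at 1.20, Rassf7 at 1.11, Hras at 1.08, Phrf1 at 0.91, Psmd13 at 0.57 and Sigirr at 0.45. Smaller changes were those of Ptdss2 at 0.26, Bet1l at 0.11 and Rnh1 at 0.027. Lower values were found for Sirt3 at -0.58, Lrrc56 at -0.31, Ric8a at -0.27 and Pgghg at -0.21, and of the genes under an FPKM of 1, Zfp941 was at -0.17, Scgb1c1 at 0.076, Odf3 at 0.032 and Cyp2e1 at 0.0057. Syce1, Cox8b, Nlrp6 and Gm17387 were listed at 0 in both conditions. The 646 genes of chromosome 7 whose mean FPKM reached 5 had a median of 0.25, and Ifitm3 was at 2.83 with that median subtracted. Whether Ifitm3 and its neighbours share a cause was not tested.

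**Figure D2:**
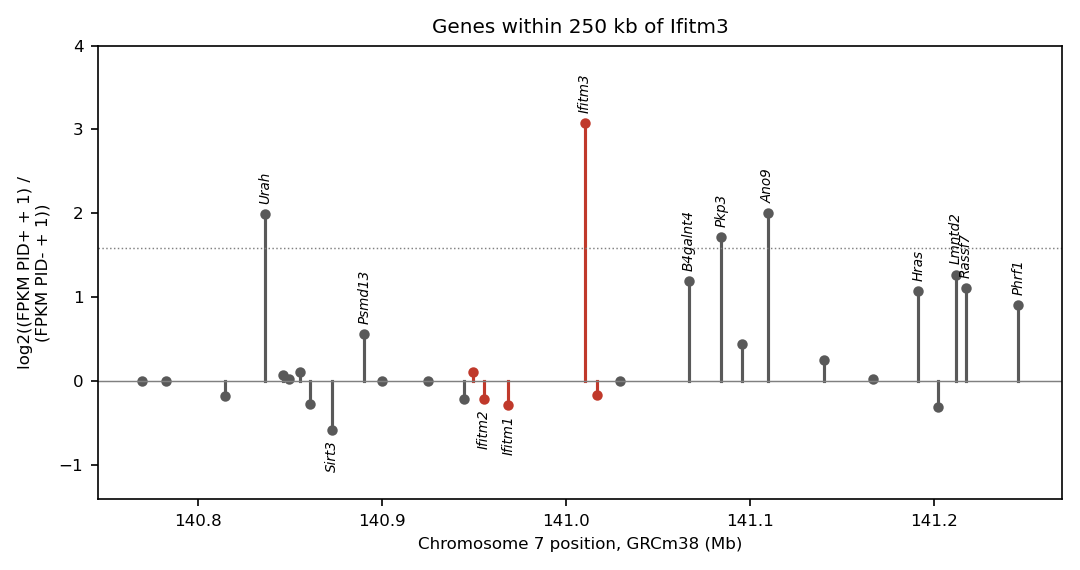
Log2 change of FPKM + 1, PID+ over PID-, for Ifitm3 and the 29 other genes within 250 kb on chromosome 7, each drawn at its midpoint, with genes of the Ifitm family in red. The dotted line marks 3-fold. Ifitm3 at 3.07 is the highest point, while Ifitm2 and Ifitm1 lie below 0.

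Ifit genes, whose proteins bind viral RNA, were all 3 higher, with a median of 0.62, but at low levels. Their summed FPKM was 3.72 in PID+ cells against 0.799 in PID- cells. Ifit1 was named after its value was seen, for its ratio of 10.3 from an FPKM of 1.99 (0 to 4.69) in PID+ and 0.193 (0 to 0.570) in PID- cells, which gives a log2 change of only 1.32 on the FPKM + 1 scale. The steps of the table put about 334 and 45 fragments behind these values. Ifit3 shares 51.2% of its 50-base stretches with Ifit3b.

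The Oas and Oasl genes encode enzymes, and relatives of them, that answer double-stranded RNA by making the signal for RNA decay. All 5 had higher values in PID+ cells, their median change being 1.68, and 4 passed 3-fold as deposited, although with Gapdh set equal Oas3 was below 0 and 2 of the 5 passed 3-fold, Oas2 being at 1.37 and Oasl1 at 1.15, and with equal total FPKM 3 passed it, Oasl1 being at 1.54. Oasl2 had the highest log2 change of the 44, 3.10, with an FPKM of 13.4 (0.813 to 26.1) in PID+ and 0.684 (0 to 1.86) in PID- cells. Oas1a had 10.9 (1.56 to 20.3) and 0.943 (0 to 2.85), a change of 2.62. Oas2, at low levels, had 3.12 (0 to 6.75) and 0.289 (0 to 0.851), a change of 1.68. Oasl1, which lies beside Oasl2 on chromosome 5, had 6.83 (0 to 14.7) and 1.55 (0 to 4.24), a change of 1.62. Oas3 had 7.87 (0.268 to 15.5) and 5.59 (0 to 11.6), a change of 0.43. The median of chromosome 5 was 0.0074. Oas1a shares 57.6% of its 50-base stretches with Oas1g and Oas1b, so its value is less certain, whereas Oasl1, Oasl2 and Oas2 share none with another annotated gene.

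Isg15 is a ubiquitin-like protein that is joined to other proteins, and Usp18 removes it and also restrains the type I receptor. Isg15 had an FPKM of 15.6 (0 to 32.8) in PID+ and 2.46 (0 to 7.38) in PID- cells, a change of 2.26. Usp18 had 17.5 (4.48 to 30.4) and 1.84 (0 to 4.26), a change of 2.70. Trim25, a ubiquitin ligase of the RIG-I pathway, had 32.0 (13.7 to 50.4) and 19.4 (7.98 to 30.7), a change of 0.70. All 3 were higher under every scaling tried, and Usp18 is the gene besides Ifitm3 whose intervals lay apart. A brake on the receptor was thus among the genes with the largest changes. Usp18 lies on chromosome 6, whose median log2 change of 0.34 was the highest among the autosomes. With that median subtracted Usp18 was at 2.36. Whether chromosome segments of different origin around the transgene had a part in the value of Usp18 was not tested.

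Interferon-inducible GTPases act against viruses and other microbes inside the cell, some of them on the membranes around these. Of 6, 5 were higher, with a median of 0.17, and with Gapdh set equal the median was -0.084. Irgm1, the most abundant of them, had an FPKM of 23.2 (5.95 to 40.4) in PID+ and 23.4 (6.0 to 40.8) in PID- cells, a change of -0.015. Gbp3, named after its value was seen, had 1.27 (0 to 3.504) and 0.113 (0 to 0.318), a ratio of 11.3 and a change of 1.03. No GTPase passed 3-fold as deposited, and Gbp3 did so with a pseudocount of 0.1, at 2.69.

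Parp9, Parp14 and Dtx3l, which attach ADP-ribose or ubiquitin to proteins, were all lower in PID+ cells, with a median of -0.32. Parp9 had an FPKM of 9.18 (0 to 19.4) in PID+ and 11.7 (0 to 23.8) in PID- cells, a change of -0.32. Dtx3l had 4.51 (0.144 to 8.88) and 6.12 (0.691 to 11.5), a change of -0.37, and Parp14 had 4.93 (1.48 to 8.38) and 6.13 (1.88 to 10.4), a change of -0.27. The 3 genes are neighbours on chromosome 16, and with the chromosome median subtracted their median was 0.18, so the direction was reversed. Of the 8 listed genes on that chromosome 5 were lower, and these were 5 of the 12 lower genes in the list. Parp9 and Dtx3l overlap in the annotation and share 9.09% and 8.73% of their 50-base stretches.

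Of the 9 other effectors 8 were higher, with a median of 0.92, and 6 were higher with Gapdh set equal, with a median of 0.59. Bst2, or tetherin, which holds budding viruses at the cell surface, was the most abundant, with an FPKM of 79.3 (27.3 to 131) in PID+ and 33.8 (4.46 to 63.2) in PID- cells, a change of 1.20. Ifi44 had 6.86 (0 to 17.2) and 1.35 (0 to 4.25), a change of 1.74, and Xaf1, a gene linked to apoptosis, had 22.4 (0 to 50.0) and 6.74 (0 to 16.7), a change of 1.60. Both were past 3-fold as deposited and under it with Gapdh set equal, both were also under it with chromosome medians subtracted, and Xaf1 was under it with equal total FPKM. Eif2ak2, which encodes the RNA-activated kinase PKR, had 22.5 (4.23 to 40.7) and 16.3 (3.08 to 29.4), a change of 0.44. Rtp4 had 5.0 (0 to 10.53) and 3.24 (0 to 7.60), a change of 0.50. Ifi27 had 18.8 (0 to 39.2) and 16.3 (0 to 35.2), a change of 0.19, and Ifi35 had 20.6 (4.17 to 37.1) and 21.8 (3.71 to 39.8), a change of -0.075. Ifi27, Ifi35 and Eif2ak2 thus had small changes beside the width of their intervals, and Ifi27 and Eif2ak2 were below 0 with Gapdh set equal.

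The remaining 12 genes of the list, which are Zbp1, Dhx58, Ifit1, Ifit2, Ifit3, Igtp, Gbp2, Gbp3, Mx1, Mx2, Rsad2 and Cmpk2, had FPKM of 0.380 to 3.25 in PID+ and 0.113 to 3.13 in PID- cells. Of these 11 were higher and 1, Zbp1, was lower, with log2 changes from -0.25 to 1.51. Over the whole list, 13 genes were under an FPKM of 1 in PID- cells and 5 in PID+ cells, and 10 crossed upward to at least 1 in PID+ cells while 2 crossed the other way. Intervals reached down to 0 for 29 genes in PID- and 23 in PID+ cells.

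Interferon-stimulated genes outside the list had a smaller median change. Of 81 other interferon-stimulated genes that were measured, 48 were higher and 33 lower, with a median of 0.084. With Gapdh set equal 25 were higher and 56 lower, when 15.8% of the 11785 genes at an FPKM of at least 1 were higher. Only 58 of the 81 reached that level, so these shares cover unlike sets. As deposited 36 of the 58 were higher, with a median of 0.25. Of the 44 listed genes 41 reached that level, and 29 of these were higher, with a median of 0.50. Of the 81 as deposited, 1 was at least 3-fold higher and 3 were at least 3-fold lower, beside 1.04% and 1.72% of all genes. With a pseudocount of 0.1 these counts were 10 and 4, beside 2.83% and 3.62%. Oas1g, the gene past 3-fold upward, had an FPKM of 5.92 (0 to 13.3) in PID+ and 0.178 (0 to 0.486) in PID- cells, a change of 2.55, and it shares sequence with Oas1a. Downward were Casp4, the caspase that senses bacterial lipopolysaccharide, with 1.18 (0 to 3.22) and 25.5 (3.21 to 47.9), a change of -3.61, Casp1, the inflammasome caspase, with 0.435 (0 to 1.28) and 6.44 (0 to 13.5), a change of -2.37, and Slfn2, with 12.0 (1.81 to 22.3) and 58.7 (24.0 to 93.5), a change of -2.20. Intervals lay apart for Slfn2. The most abundant genes were Ly6e, with 2456 and 1820.3, Apobec3, a cytidine deaminase that restricts retroviruses, with 212 (41.1 to 383) and 79.1 (21.4 to 137), and Plscr1, with 159 (69.6 to 249) and 101 (43.1 to 159). The counts past 3-fold thus depended on the pseudocount, and the difference between the medians of the lists was not tested.

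Outside the list 11 genes were taken as brakes on the interferon response, not all of which act on its signalling proteins. Of these 5 were higher, with a median of -0.13 that became 0.062 with chromosome medians subtracted. With Gapdh set equal 2 were higher and 9 lower. Their median was then -0.55, beside -0.59 over the 9341 genes under that scaling. Of the 11, 1 was then at least 3-fold lower, beside 3.29% of all genes, whereas none passed 3-fold as deposited. With a pseudocount of 0.1 Ptpn6 alone passed 3-fold, upward, at 1.71. The most abundant were Ptpn11, with an FPKM of 59.9 (27.2 to 92.5) in PID+ and 66.3 (29.1 to 103) in PID- cells, Samhd1, with 37.2 (7.29 to 67.0) and 33.5 (6.71 to 60.3), and Ptpn2, a phosphatase of the Jak kinases, with 25.6 (7.72 to 43.5) and 24.7 (7.44 to 42.0). Class I antigen presentation, which interferons raise in most cells, had 8 of 14 genes higher as deposited, with a median of 0.11 and none past 3-fold. With Gapdh set equal 3 of the 14 were higher, with a median of -0.33, when 15.8% of the 11785 genes were higher. B2m had 194 (84.6 to 303) and 211 (92.4 to 329), H2-D1 had 185 (47.7 to 323) and 109 (27.6 to 189.7), and H2-K1 had 153 (65.7 to 240.5) and 121 (51.9 to 191).

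**Figure D3:**
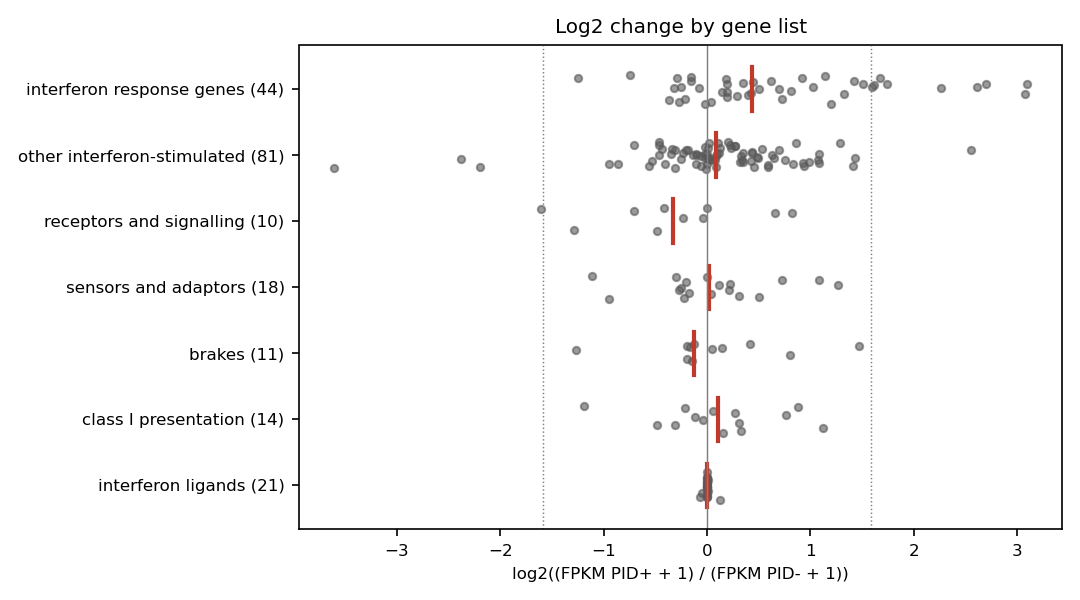
Log2 change of FPKM + 1, PID+ over PID-, for each gene of 7 lists, with the number of genes measured in brackets. Red bars are medians and dotted lines mark 3-fold in each direction. The 44 interferon response genes have a median of 0.44 and the 81 other interferon-stimulated genes one of 0.084. Among genes of these lists that reached an FPKM of 1 in PID+ or PID- cells the medians were 0.50 and 0.25.

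The cells had to be checked against the markers of their labelled type and of cells that could bring interferon-stimulated transcripts with them. Of 11 markers of colon epithelium, 8 had higher values in PID+ cells and 2 lower, with a median change of 1.06. With Gapdh set equal 7 were higher and 3 lower, with a median of 0.43. As deposited the summed FPKM of the 11 was 9085 in PID+ cells against 4968 in PID- cells. The keratins Krt19, Krt8 and Krt18 were the most abundant, with 2469, 2745 and 2843 in PID+ cells against 2073, 1319 and 1199 in PID- cells. Epcam had 401 (178 to 623) and 124 (56.0 to 193), and Cldn7 had 274 (111 to 437) and 79.4 (30.0 to 129), so that both were past 3-fold in the direction of Ifitm3, though both were under it with Gapdh set equal, at 1.06 and 1.15, and Epcam with equal total FPKM, at 1.58. The intestinal factor Cdx1 was listed at 0 in both conditions, Vil1, a microvillus gene, had 0.175 and 0.0614, and Cdx2 had 0.542 (0 to 1.64) and 8.04 (1.07 to 15.0), a change of -2.55. Keratins and junction genes of epithelium were thus abundant in both conditions, while genes of the intestine differed among themselves. Krt20, an intestinal keratin, had 158 (72.9 to 243.8) and 73.5 (31.9 to 115), whereas Cdx1, Vil1 and Lgals4 were at 0 or low and Cdx2 was low in PID+ cells. Fewer cells of a type and less RNA per cell cannot be told apart in these pooled values.

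Markers of T, NK and B cells were low in both conditions, while Cd53 in PID- cells and Ly6g, Cd14 and Cd68 in both were not. The 5 general leukocyte markers had a summed FPKM of 0.675 in PID+ cells against 7.62 in PID- cells, of which Cd53 made up 0.582 (0 to 1.72) and 7.44 (0.235 to 14.7), at least 3-fold lower in PID+ cells with a change of -2.42, while Ptprc, which encodes CD45, had 0.0264 and 0.00811. Of 8 markers of T and NK cells 6 were at 0 in both conditions, among them Cd3e, Cd3d and Cd3g, and the list summed to 0.0110 and 0.0442, most of it Klrb1c. The 4 B cell markers summed to 0.166 and 0.0550, most of it Cd79a in PID+ cells. Siglech, a marker of plasmacytoid dendritic cells, which are strong producers of type I interferon, was listed at 0 in both conditions, and the 9 markers of macrophages and dendritic cells summed to 51.1 and 45.8, of which Cd14, with 29.1 and 28.6, and Cd68, with 21.8 and 16.8, made up nearly all. Among 6 markers of neutrophils and mast cells Ly6g had 109 (30.3 to 188) and 15.5 (0 to 33.2), a change of 2.74, while S100a8 and S100a9, the abundant genes of neutrophils, had 0.332 and 0.707 in PID+ cells and 0.142 and 0.0652 in PID- cells, and Cpa3 was at 0. The list summed to 111 and 16.2, so Ly6g rose past 3-fold together with Ifitm3. Ly6g belongs to a large gene family, and the part of cells other than epithelium in the change of Ifitm3 was not tested beyond these levels.

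Fibroblast markers moved against Ifitm3. Of 8 fibroblast markers 7 were lower in PID+ cells and 4 were at least 3-fold lower, with a median of -1.31 and a sum of 3.005 in PID+ cells against 34.1 in PID- cells. Col1a2 had 0.0654 (0 to 0.242) and 11.9 (4.07 to 19.7), with intervals apart, Col1a1 had 2.32 (0 to 4.96) and 11.9 (4.61 to 19.1), and Col3a1 had 0.339 (0 to 1.35) and 6.35 (0 to 17.5). Dcn was listed at 0 in PID+ cells and at 2.39 in PID- cells, and Lum was at 0 in both. All 6 endothelial markers were higher in PID+ cells as deposited, with a median of 0.078 and none past 3-fold. With equal total FPKM 4 of 6 were higher, and with Gapdh set equal 3 of 6. With a pseudocount of 0.1 the median was 0.54 and 2 were at least 3-fold higher. The 6 markers summed to 4.06 and 1.41, with Kdr, at 3.33 and 1.012, the most abundant. Whether the shifts of these markers had a part in the interferon response genes was not tested.

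Promoters of the members were read from RefSeq on GRCm38.p6, 250 bases before to 50 after the annotated start, and 34 of the 44 genes matched. Both strands were searched for GAAANNGAAA, the core of the interferon-stimulated response element, and for TTCNNNGAA, the core of the interferon gamma activated site. The response element core was present in 17 of the 34, or 50.0%, against 3.99% of the 27025 genes with a promoter in the table. The gamma core was present in 10 of the 34, or 29.4%, against 9.55%. Both were present in 5, and in Ifitm3 and Bst2 the matches overlap. Of the 7 promoters of genes at least 3-fold higher, 3 held the response element core, those of Ifitm3, Isg15 and Oas1a. Of the 27 others 14 did, and the difference was not tested. The median log2 change was 0.62 for the 17 with the core and 0.39 for the 17 without. Of those with the core 15 were higher in PID+ cells, and of those without it 10, a difference also not tested.

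The 3 Ifitm promoters are shown because Ifitm3 changed and Ifitm1 and Ifitm2 did not pass a threshold, with matches to GAAANNGAAA on either strand in capitals. Ifitm3 has 2 matches, which begin 2 and 19 bases after the RefSeq start, Ifitm2 has 1, which begins 46 bases before it, and the Ifitm1 window has 0. By the Gencode annotation the Ifitm1 gene begins upstream of this window, at 140967221. The Ifitm2 and Ifitm3 genes begin upstream of their RefSeq starts, at 140955987 and 141010770, so the windows depend on the start chosen.
Ifitm3, chr7:141010695-141010994, minus strand: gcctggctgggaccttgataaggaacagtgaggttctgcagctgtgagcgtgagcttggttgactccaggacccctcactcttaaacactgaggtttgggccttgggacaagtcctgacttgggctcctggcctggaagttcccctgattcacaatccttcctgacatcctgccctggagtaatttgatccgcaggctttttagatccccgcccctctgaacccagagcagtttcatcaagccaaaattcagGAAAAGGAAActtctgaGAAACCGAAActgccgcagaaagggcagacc
Ifitm2, chr7:140955912-140956211, minus strand: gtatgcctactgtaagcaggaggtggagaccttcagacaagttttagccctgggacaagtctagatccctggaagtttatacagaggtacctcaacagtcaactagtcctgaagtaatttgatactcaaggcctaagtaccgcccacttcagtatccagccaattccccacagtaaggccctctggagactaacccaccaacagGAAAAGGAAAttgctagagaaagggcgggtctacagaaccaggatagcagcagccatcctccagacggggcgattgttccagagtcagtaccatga
Ifitm1, chr7:140967826-140968125, plus strand: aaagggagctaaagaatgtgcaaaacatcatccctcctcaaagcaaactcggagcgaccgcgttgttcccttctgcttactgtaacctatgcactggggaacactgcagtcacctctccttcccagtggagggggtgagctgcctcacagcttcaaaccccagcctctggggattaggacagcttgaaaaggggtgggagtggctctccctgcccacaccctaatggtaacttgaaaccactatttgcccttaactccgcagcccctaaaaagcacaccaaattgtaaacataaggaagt
The core was thus present in Ifitm3, which was 3-fold higher, and in Ifitm2, which was not. A match is only a run of letters, and binding there was not tested.

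For comparison, the parts of the promoters around the matches are given for Isg15, Oas1a and Ifit1, 3 genes with a core and higher values in PID+ cells.
Isg15, chr4:156200855-156200916, minus strand: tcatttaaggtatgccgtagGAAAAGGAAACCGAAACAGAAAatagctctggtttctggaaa
Oas1a, chr5:120907510-120907565, minus strand: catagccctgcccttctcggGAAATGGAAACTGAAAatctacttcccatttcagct
Ifit1, chr19:34640765-34640833, plus strand: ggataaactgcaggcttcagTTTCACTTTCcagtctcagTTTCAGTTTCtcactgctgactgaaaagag
Isg15 has 3 overlapping matches and Oas1a 2, and those of Ifit1 lie on the other strand and so read as TTTC repeats on the strand printed.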

How the data were processed

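RNA from the cultures was sequenced, with reads of 50 bases per the labels and paired-end per the study's methods. After cutadapt and FastQC the authors aligned them to GRCm38.p3 with TopHat and Bowtie2 against an annotation of protein-coding genes. They gave TopHat all 3 sets of a condition at once and ran CuffDiff on the result, so the deposited FPKM is 1 pooled value per gene and condition, with deposited lower and upper bounds. The deposited standard deviations were not used.

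Genes were named by Ensembl identifier from Gencode M21 (GRCm38), and 21734 of 21966 had a symbol. Genes without OK status in a condition (7) were left out. Log2 changes used a pseudocount of 1 and calls a 3-fold threshold, with no p-value. Other settings tried were subtraction of chromosome medians, Gapdh, total FPKM or the upper quartile set equal, a pseudocount of 0.1, a minimum mean FPKM of 5, a 2-fold threshold and intervals apart. Fragments behind a value were estimated from the steps of low FPKM with a length correction of 180 bases. The calculations were tested on simulated data. Python 3.11.15, pandas 2.3.3 and numpy 2.4.6 were used.

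The members and lists were chosen with earlier results of these data known. Named one by one were the Ifitm genes, receptors and transcription factors, and every member at least 3-fold changed, with intervals apart or that reached an FPKM of 5 in PID+ or PID- cells. From other lists, genes at least 3-fold changed with an FPKM of at least 5, the 3 most abundant genes by mean FPKM and genes at 0 that define a cell type were named, and all genes within 250 kb of Ifitm3. Genes named outside this rule were chosen after their values were seen. Roles were assigned after the values were seen. The result of 1 gene of the signalling list is not reported here.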

Additional observations from a re-analysis of the deposited data

How the results depend on the processing

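Against 9 of 44 genes at least 3-fold higher as deposited, there were 14 with a pseudocount of 0.1 (2.83% of all genes), 5 with Gapdh set equal (0.414%), 15 at 2-fold (3.31%) and 2 by intervals apart (0.187%), and 7 to 9 under the other alternatives apart from the filter at a mean FPKM of 5, which left 6. Against 0 at least 3-fold lower there was 1 with Gapdh set equal (3.29% of all genes) and 1 at 2-fold (3.77%). The median log2 change of 0.44 was 0.63 with a pseudocount of 0.1, 0.033 with Gapdh set equal and 0.62 with chromosome medians subtracted, and 0.35 to 0.50 otherwise. Counts of genes higher in PID+ under these scalings, an alternative chosen after seeing the data, ran from 24 with Gapdh set equal to 33 with chromosome medians subtracted. No single gene past 3-fold changed sign. With Gapdh set equal 4 genes fell under 3-fold and 1 passed it, and with a pseudocount of 0.1, 5 passed it. The cause of these shifts was not tested.

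The limits are those of 1 pooled value per condition: the spread between mice is unknown, culture, genotype and any sequencing batch cannot be told apart, and the intervals come from a model. Values of genes that share sequence or overlap are less certain.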
